A study of Mus musculus with 2 samples.

Results

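The 85 genes described here are the ribosomal protein genes of the mouse, taken by their symbols: those that start with Rpl or Rps followed by a number or a p, without the symbols that carry -ps for pseudogene and without the S6 kinases (Rps6k). They were 85 of the 31053 genes in the deposited matrix, 52 with a large subunit symbol and 33 with a small subunit symbol, and 9 pseudogene symbols stayed outside. The cells came from the olfactory epithelium of a male C57BL/6 mouse in which unilateral naris occlusion, the closing of 1 nostril, had been done at postnatal day 14, and which was sampled at postnatal day 28. The epithelium of the closed (L) and that of the open (R) side were dissociated, frozen, cleared of dead cells and profiled with the Chromium Single Cell 3' v3 kit, 1 library per side, so that the strain, sex, age and operated animal are shared by both libraries. The open side is thus the other side of the operated mouse, and not an unoperated animal. The barcodes end in 1 or 2 and no label or file given here says which side an ending stands for, so the libraries are called library 1 and library 2. With 1 library per side there are no replicates, and no test between conditions was possible; agreement between both libraries is the only repeat of each value.

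Ribosomal proteins assemble with ribosomal RNA into the small subunit, which reads the messenger RNA, and the large subunit, which joins amino acids. Each ribosome takes 1 copy of nearly every protein, and the genes are among the most highly transcribed in growing cells. Most of their messages start with a run of pyrimidines, the terminal oligopyrimidine motif, through which growth signals control their translation. In the olfactory epithelium, horizontal basal cells (HBC) are reserve stem cells and globose basal cells (GBC) are the dividing progenitors. GBC give rise to immediate neuronal precursors (INP), then to immature and mature olfactory sensory neurons (OSN), which are replaced throughout life.

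Because the members were chosen for a shared role and moved together, the bases around their annotated starts were read from the RefSeq table for GRCm38.p6, in which 65 of the 85 symbols were found. Each stretch below is 30 bases long, 10 before and 20 from the annotated start on, 5′ to 3′ on the strand of the gene. Capitals mark the longest run of C and T that begins with C, anywhere in the stretch. Shown are Rpl35 with a long run, Rps26 with one of the largest falls, 3 members that departed from the rest (Rplp0, Rpl22l1 and Rps9), a gene and its copy with the same coding sequence (Rps27 and Rps27rt), and Rpl41, a member without a run:
Rpl35 (chr2:39005112-39005141, minus strand): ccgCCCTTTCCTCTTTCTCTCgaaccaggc
Rps26 (chr10:128626487-128626516, minus strand): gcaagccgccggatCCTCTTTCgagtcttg
Rplp0 (chr5:115559457-115559486, plus strand): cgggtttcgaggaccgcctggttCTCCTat
Rpl22l1 (chr3:28805498-28805527, plus strand): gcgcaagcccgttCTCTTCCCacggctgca
Rps9 (chr7:3704031-3704060, plus strand): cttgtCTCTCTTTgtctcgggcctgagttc
Rps27 (chr3:90213629-90213658, minus strand): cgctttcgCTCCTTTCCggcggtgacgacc
Rps27rt (chr9:114982720-114982749, minus strand): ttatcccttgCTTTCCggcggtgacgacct
Rpl41 (chr10:128549149-128549178, minus strand): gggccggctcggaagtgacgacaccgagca

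The runs shown for Rplp0 (5 bases) and Rps27rt (6 bases) were under the minimum length used for counting. That of Rplp0 also began more than 10 bases after the annotated start. A run of at least 7 such bases that began within 10 bases of an annotated start was present in 30 of the 65 members (46.2%), against 14.1% of the 27025 genes in the table. In the 300 bases of each window, the letters CTTTCC were found on the gene strand in 26 members (40%) and in 16% of all genes, and the longer CTCTTTCC, which contains the former, in 8 members (12.3%) and 1.76% of all genes. CGGAAG, searched on both strands, was found in 43 members (66.2%) against 18.8%, AAGATGGC on both strands in 6 (9.23%) against 3.19%, and TATAAA at 35 to 20 bases before the start in 1 member (1.54%) against 2.22%. These are matches of letters and not measured sites, and annotated starts can lie beside the base that is used in these cells.

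After cells with fewer than 1000 unique molecular identifiers (UMIs, each standing for 1 captured RNA molecule), fewer than 500 genes or over 10% mitochondrial UMIs had been left out, 3032 of 4501 barcodes of library 1 and 5266 of 7990 of library 2 remained. They held 21444390 and 37996298 UMIs, with medians of 5528 and 5139.5 per cell, and 12 barcode sequences occurred in both libraries. The members gave 12.1% of the kept UMIs of library 1 and 13.2% of those of library 2. Cells were grouped into 37 clusters without the use of any member, and clusters were named after listed marker genes, so that class names end in "-like". Of the classes, 12 had at least 50 cells in each library. Cluster 30, counted as mature OSN-like with 47 and 31 cells, also carried a median of 14492 and 10349 UMIs per cell. It held the sustentacular gene Cyp2g1 at 5202 and 4974 CPM (UMIs of a gene per 1000000 UMIs of the cells). Cluster 18, counted as sustentacular-like, held neuronal UMIs. The summed fall from GBC-like to mature OSN-like cells is given without both clusters below. So is the number of classes with a higher share in library 2, while the differences of single members between the libraries are not.

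The share of UMIs that came from ribosomal protein genes differed several-fold between classes and fell along the neuronal lineage. It was 20.7% of UMIs in GBC-like cells of library 1 (95% exact binomial interval 20.7 to 20.8%, 148 cells) and 20.2% in library 2 (20.2 to 20.3%, 349 cells). INP-like cells had 15.9% in both libraries (51 and 149 cells), immature OSN-like cells 11.6% and 12.4% (215 and 538 cells), and mature OSN-like cells 6.81% and 6.49% (623 and 780 cells). The order of the stages was the same in both libraries, and each step between neighbouring stages was larger than the gap between the libraries. These intervals, and all others here, cover counting error only and not the spread between animals.

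The quartiles of single cells at both ends of the lineage did not overlap. In GBC-like cells the lower and upper quartiles were 15.9% and 25.6% in library 1 and 17.1% and 25.1% in library 2. In mature OSN-like cells they were 5.30% and 6.82% in library 1, and 5.21% and 6.95% in library 2. A GBC-like cell held a median of 2288 member UMIs in library 1 and 2150 in library 2, and a mature OSN-like cell 324 and 296, which is 7.06-fold and 7.26-fold fewer. UMIs of all other genes fell less, from medians of 8282 and 7950 to 5059 and 4707 per cell, or 1.64-fold and 1.69-fold. With cells thinned to 2000 UMIs, and those below that left out (2 and 4 GBC-like, 5 and 21 mature OSN-like cells), a median of 75 members was detected in a GBC-like cell of either library, and of 56 and 55 in a mature OSN-like cell. Less RNA in a cell cannot be told apart here from less RNA captured from it, and the part of free RNA in the droplets was not tested.

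HBC-like cells, summed over clusters 4 and 5 with the unlike shares given below, had 19.5% and 19.3%, close to GBC-like cells. Outside the lineage, the B lineage-like cells had the highest share of the 12 classes, 29.0% and 27.6%, and the neutrophil-like cells the lowest, 3.80% and 4.52%. Macrophage or monocyte-like cells had 15.3% and 16.3%, fibroblast-like cells 11.8% and 12.4%, and Bowman's gland and duct-like cells, which secrete mucus, 11.4% and 11%. Ionocyte-like microvillous cells had 10.7% and 12.8%, and sustentacular-like cells, which support the neurons, 10.0% and 10.7%. T or NK-like cells, too few in library 1 (45 cells) for the class comparisons, had 32% and 31.9%. The mature OSN-like share was thus above that of neutrophil-like cells only, among the 12 classes, in both libraries.

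**Figure D1:**
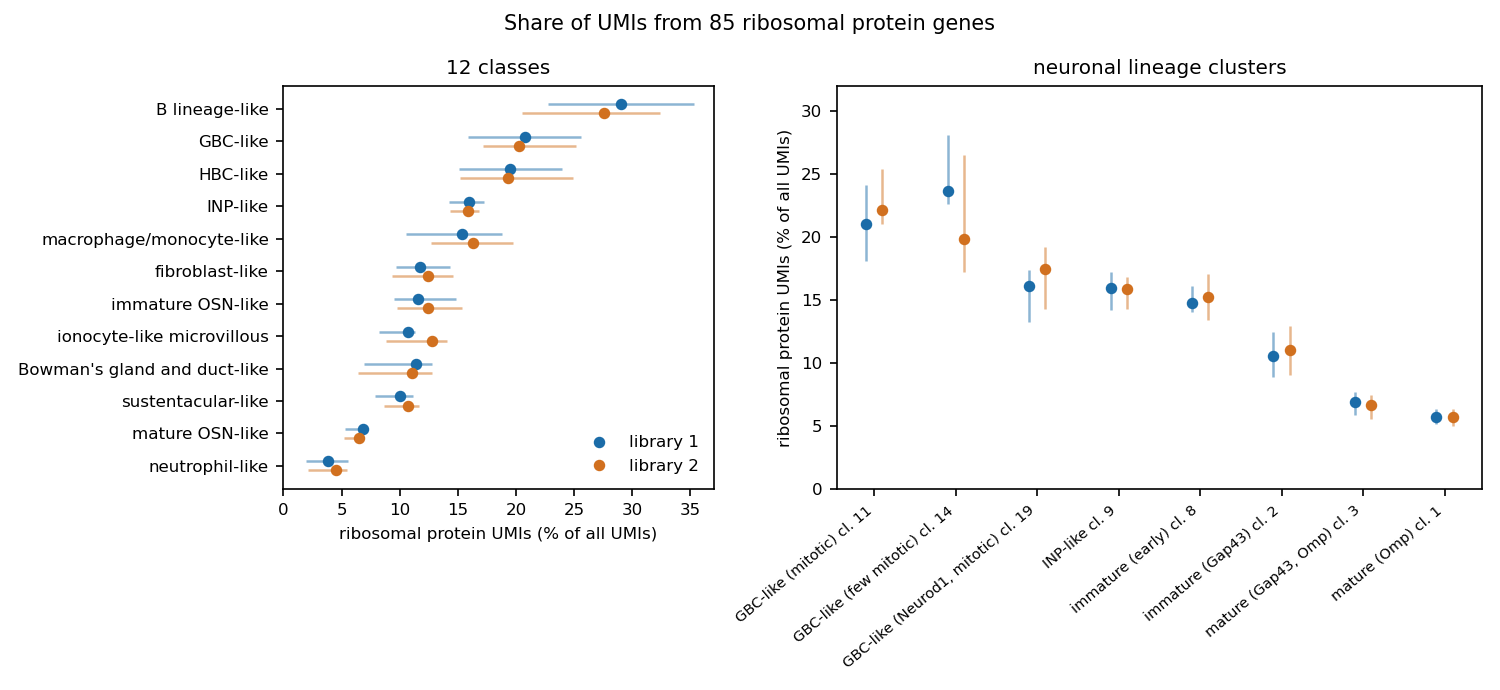
Percent of all UMIs that came from the 85 ribosomal protein genes, in 12 classes (left) and in 8 clusters of the neuronal lineage in marker order (right); points are summed UMIs of a class or cluster in 1 library, lines span the lower to the upper quartile of single cells. The share lies near 20% in GBC-like cells and near 6.5% in mature OSN-like cells in both libraries.

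Within the lineage the clusters placed the fall more finely, ordered here by their marker genes. The mitotic cluster 11 (Mki67, a gene of dividing cells, at 362 and 353 CPM) had 21.0% and 22.1% of UMIs from members. Cluster 14, GBC-like with fewer mitotic UMIs (Mki67 at 59.5 and 85.9 CPM), had 23.6% and 19.8%. The share was thus above that of cluster 11 in library 1 and below it in library 2, with median member differences of 0.16 and -0.17, and gave no common direction. Cluster 14 also carried the 16 sustentacular marker genes at a summed 7519 and 13727 CPM, against 4297 and 3527 CPM in cluster 11, and the part of those UMIs in its share was not tested.

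The mitotic, Neurod1-expressing cluster 19 had 16.1% and 17.4%, although its Mki67 level of 403 and 414 CPM was above that of cluster 11. Members could be compared with at least 10 CPM in the higher of both clusters, in each library. Of the 82 such members, 81 were lower in cluster 19 than in cluster 11 in both libraries. Their median log2 difference was -0.37, against 0.02 over all genes. None reached 2-fold (background 6.45% of 8587 genes at least 2-fold lower). The share of all genes that differed in 1 direction at any size was not counted, here or for the like counts below. INP-like cluster 9, with Neurod1 at 1754 and 1325 CPM and Mki67 at 19.7 and 25.7 CPM, had 15.9% in both libraries, and the early immature cluster 8 (Gng8 at 2267 and 2050 CPM) had 14.7% and 15.3%. From cluster 19 to 9 the median member difference was -0.06, and 1 member, Rpl22l1, was 2-fold lower (background 8.09%). From cluster 9 to 8 it was -0.09, with 0 members 2-fold lower (background 5.24%). The members thus differed little between the dividing cluster 19 and the first 2 clusters with few mitotic UMIs.

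The larger steps came later. The Gap43-expressing immature cluster 2 had 10.5% and 11%, with a median member difference of -0.48 from cluster 8 and 1 member, Rps26, 2-fold lower (background 3.19%). Cluster 3, which carried Gap43 at 488 and 581 CPM and the olfactory marker protein gene Omp at 2944 and 3281 CPM, had 6.86% and 6.66%. This step, with a median of -0.68 (all genes -0.07), was the largest between neighbouring clusters, and 80 of 82 members were lower in both libraries. Only 3 of them, Rpl10, Rpl37 and Rplp0, were at least 2-fold lower in both (background 5.59%), and they are named because they were few, after their values had been seen. Cluster 1, with Omp at 5524 and 5997 CPM and Gap43 at 34.0 and 49.9 CPM, had 5.71% and 5.74%, a further median of -0.21 with 0 members 2-fold lower (background 2.35%). Cluster 30 with its mixed markers had 9.75% and 9.51%.

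From GBC-like to mature OSN-like cells the log2 ratio of the summed share was -1.62, the mean of both libraries. Every one of the 82 comparable members was lower in mature OSN-like cells in both libraries, none was higher, and 76 were at least 2-fold lower in both. Over all 9953 genes compared the same way, 16.1% were at least 2-fold lower and 24.5% at least 2-fold higher, and the median difference was 0.16. The median over the members was -1.60, with quartiles of -1.87 and -1.28. Large subunit symbols had a median of -1.56 and small subunit symbols of -1.76. The 3 members left out of this comparison, Rpl3l, Rpl10l and Rpl39l, had 0 UMIs in GBC-like and in mature OSN-like cells and gave no fold. With cells thinned to 2000 UMIs each, the log2 ratio of the share was -1.740, and as a mean of the cells' own shares -1.737. Thinning makes cells weigh equally and leaves the expected share of a cell unchanged, so it cannot test an effect of depth on the share. Without clusters 18 and 30 the log2 ratio was -1.74 as well.

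**Figure D2:**
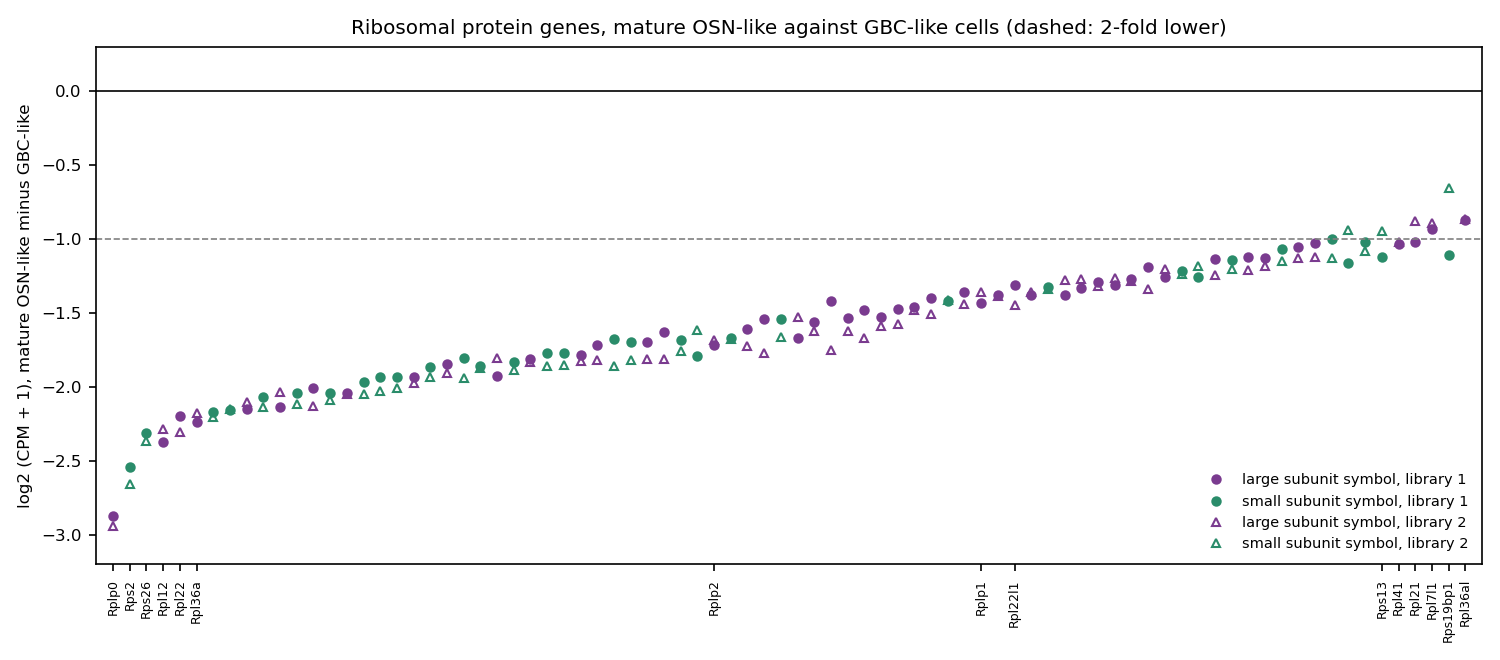
Difference of log2(CPM + 1) between mature OSN-like and GBC-like cells for each of 82 ribosomal protein genes, ordered by the mean of 2 libraries; filled circles are library 1, open triangles library 2, purple large and green small subunit symbols; the 6 genes at each end and 3 others are labelled. All points lie below 0, Rplp0 lies lowest near -2.9 and Rpl36al highest near -0.87.

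The members with the largest falls included proteins of both subunits. Rplp0 encodes the base of the stalk, the flexible arm of the large subunit that recruits elongation factors (gene at chr5:115559467-115563727, plus strand, GRCm38). It stood at 4777 CPM in GBC-like cells of library 1 and 4115 in library 2, at 3213 and 2879 in INP-like, 1722 and 1816 in immature OSN-like, and 650 and 536 in mature OSN-like cells. Its exact Poisson intervals in mature OSN-like cells were 625 to 676 and 514 to 558 CPM. The difference was -2.88 in library 1 and -2.94 in library 2 on the log2 scale, a 7.50-fold fall, and the mean difference was -3.27 without clusters 18 and 30.

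Rps2, a protein near the messenger RNA entry of the small subunit, went from 4353 and 4251 CPM to 746 and 673, a mean difference of -2.60. INP-like cells were already at 2097 and 2065. Rps26, which lies at the messenger RNA exit, kept its level for longer: it was at 3182 and 3033 CPM in GBC-like cells, 3036 and 2857 in INP-like cells, 1665 and 1818 in immature and 641 and 587 in mature OSN-like cells, a difference of -2.34. Rpl12, at the base of the stalk, went from 964 and 910 CPM to 457 and 390 in INP-like cells and 185 and 186 in mature OSN-like cells (-2.33). Rpl22, an RNA-binding protein on the outside of the large subunit, went from 1718 and 1637 to 374 and 331 CPM (-2.25), and Rpl36a from 1140 and 1054 to 241 and 233 CPM (-2.21). These 6 members were picked as the largest falls, so the gap between both ends follows from that choice and adds no support.

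The smallest falls were found in paralogs and in symbols that are no core ribosomal proteins. Rpl36al, an intronless copy of Rpl36a, stood at 554 and 569 CPM in GBC-like and 303 and 312 in mature OSN-like cells (-0.87). Rps19bp1 encodes a binding partner of RPS19 and not a ribosomal protein, and was at 92.6 and 79.3, then 42.4 and 50 CPM (-0.88). Rpl7l1, a relative of Rpl7 known from ribosome assembly, was at 67.0 and 63.4, then 34.7 and 33.8 CPM (-0.91). Among core proteins, Rpl21 (2809 and 2379 to 1383 and 1296 CPM, -0.95), Rpl41 (7615 and 7857 to 3725 and 3868 CPM, -1.03) and Rps13 (2441 and 2282 to 1123 and 1188 CPM, -1.03) had the smallest differences. The 6 comparable members that were not 2-fold lower in both libraries were Rpl21, Rpl36al, Rpl7l1, Rps13, Rps19bp1 and Rps27rt.

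The single steps between classes reached 2-fold for few members. From GBC-like to INP-like cells the median over members was -0.34 (all genes -0.05), and 3 members, Rpl12, Rpl22l1 and Rps2, were at least 2-fold lower in both libraries, against a background of 14.1% of 8954 genes. From INP-like to immature OSN-like cells it was -0.40 (all genes 0.26) with 0 members 2-fold lower (background 5.41%). From immature to mature OSN-like cells it was -0.82 (all genes -0.03), and 13 of 82 members (background 7.45%) were 2-fold lower, among them Rpl10, Rpl17, Rpl27a, Rpl29, Rpl32, Rpl35, Rpl36a, Rpl37, Rplp0, Rps15a, Rps19 and Rps26. Only 3 members were higher in both libraries in immature OSN-like than in INP-like cells, namely Rpl10, Rpl36al and Rpl22l1. Rpl10 stood at 343 and 315 CPM in INP-like, 464 and 469 in immature and 158 and 133 in mature OSN-like cells, and Rpl36al at 418 and 431 CPM in INP-like and 514 and 504 in immature OSN-like cells.

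GBC-like and HBC-like cells differed less, with a median member difference of 0.13 and 2 members, Rps27 and Rps27rt, at least 2-fold lower in GBC-like cells in both libraries (background 15.3%). The HBC-like cells were not uniform. Cluster 4 led with Car12, Nrcam, Igfbp2 and Trp63, and cluster 5 with Krt15, Adh7 and Defb1. Whether both are the same type of basal cell was not tested. HBC-like cluster 5 had 23.6% of UMIs from members in both libraries, and HBC-like cluster 4 had 15.2% and 15.5%. Between them 76 of 82 members were higher in cluster 5 in both libraries, with a median of 0.66 against -0.30 over all genes, and 1 of them, Rplp0, was 2-fold higher (background 3.38%). Cluster 4 carried Cyp2g1 at 1240 and 1226 CPM and cluster 5 at 336 and 407 CPM, and the part of other cells' UMIs in this difference was not tested.

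To see which members departed from the rest, each member's share of all ribosomal protein UMIs of a class was set against its mean share in the other classes, a measure that is free of the summed level. Of the 83 members with enough UMIs, 5 departed at least 2-fold in some class in both libraries, and 56 stayed under 0.5 on the log2 scale everywhere. By the same rule, among other genes and as shares of the UMIs outside members and receptors, 65% of 12796 departed in some class. The members with the smallest departures were Rpl6, Rpl8, Rpl11, Rps23, Rpl36 and Rps10. Rpl6, for instance, departed most in B lineage-like cells, with 1.29% and 1.21% of member UMIs there against 1.42% and 1.46% elsewhere. Across the 24 class and library values, Pearson's r between a member's log2 level and that of the summed members had a median of 0.962. This is a description over 12 classes in 2 libraries, in which each member is part of the sum.

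**Figure D3:**
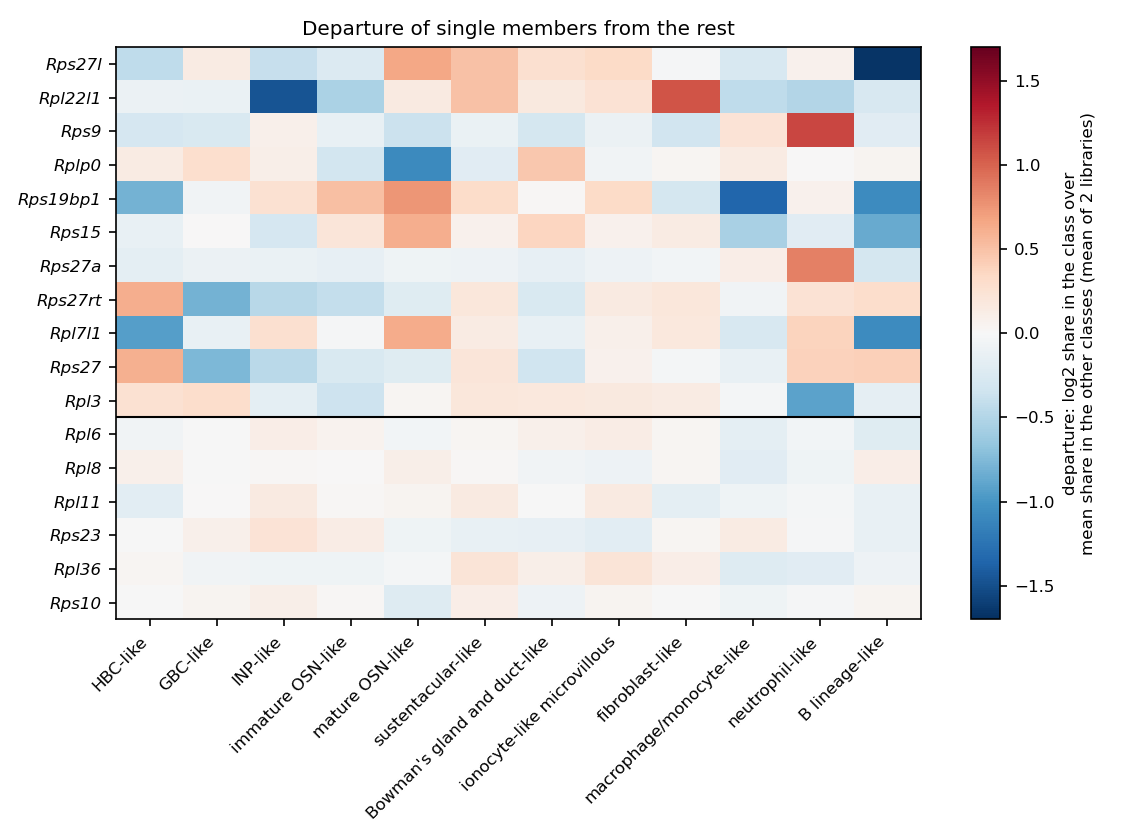
Departure of single members (rows) in 12 classes (columns), as the log2 ratio of a member's share of ribosomal protein UMIs in the class over its mean share in the other classes, mean of 2 libraries. Rows above the line are the members with the largest departures apart from Rpl3l, whose UMIs were too few to draw, and rows below it are the 6 with the smallest; Rpl22l1 in INP-like, Rplp0 in mature OSN-like, Rps9 in neutrophil-like and Rps27l in B lineage-like cells stand out.

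In mature OSN-like cells the departing member was Rplp0, with 0.954% of member UMIs in library 1 and 0.826% in library 2 against 1.93% and 1.84% in the other classes, a departure of -1.02 and -1.15. The decline was gradual in the clusters: 2.37% and 2.14% in cluster 11, 2.02% and 1.81% in cluster 9, 1.35% and 1.31% in cluster 2, 0.871% and 0.818% in cluster 3, and 0.682% and 0.669% in cluster 1. Its partners on the stalk are the acidic proteins encoded by Rplp1 and Rplp2. Their shares also fell at first, but did not follow Rplp0 to the end and were higher again in cluster 1. Rplp1 made up 0.987% and 0.953% of member UMIs in cluster 11, 0.607% and 0.619% in cluster 9, and 1.14% and 1.15% in cluster 1. Rplp2 stood at 0.964% and 1.01% in cluster 11, 0.592% and 0.554% in cluster 8, and 0.924% and 0.984% in cluster 1. The proportions between the messages of the 3 stalk proteins therefore differed along the lineage, in both libraries alike. The ribosome holds more of the acidic proteins than of their base, and protein levels were not measured here. The departure of Rplp0 lay close to the 2-fold line and was under it without a cell filter and at a Leiden resolution of 0.5.

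In INP-like cells the departing member was Rpl22l1, the paralog of Rpl22 (gene at chr3:28805436-28807424, plus strand, GRCm38). It gave 81 of the member UMIs of library 1 (0.201%) and 306 of those of library 2 (0.248%), against means of 0.626% and 0.607% in the other classes. As a level it was at 1086 and 1148 CPM in GBC-like cells, 319 and 394 in INP-like cells, and back at 529 and 465 in immature and 438 and 421 in mature OSN-like cells. By cluster, its share of member UMIs went from 0.528% and 0.471% in cluster 19 to 0.201% and 0.248% in cluster 9, 0.207% and 0.253% in cluster 8, and 0.576% and 0.456% in cluster 2. The dip thus covered precursors and the earliest immature neurons and was seen in both libraries. Rpl22 itself showed no dip there: its share was 0.851% and 0.807% in cluster 19, 0.730% and 0.757% in cluster 9, 0.601% and 0.535% in cluster 8, and 0.526% and 0.511% in cluster 1. Coding sequences of the pair were 69.3% identical in the GENCODE M21 transcripts. In fibroblast-like cells Rpl22l1 was above the other classes, with 1.34% and 0.939% of member UMIs. With at most 5% mitochondrial UMIs too few INP-like cells were left for the comparison.

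**Figure D4:**
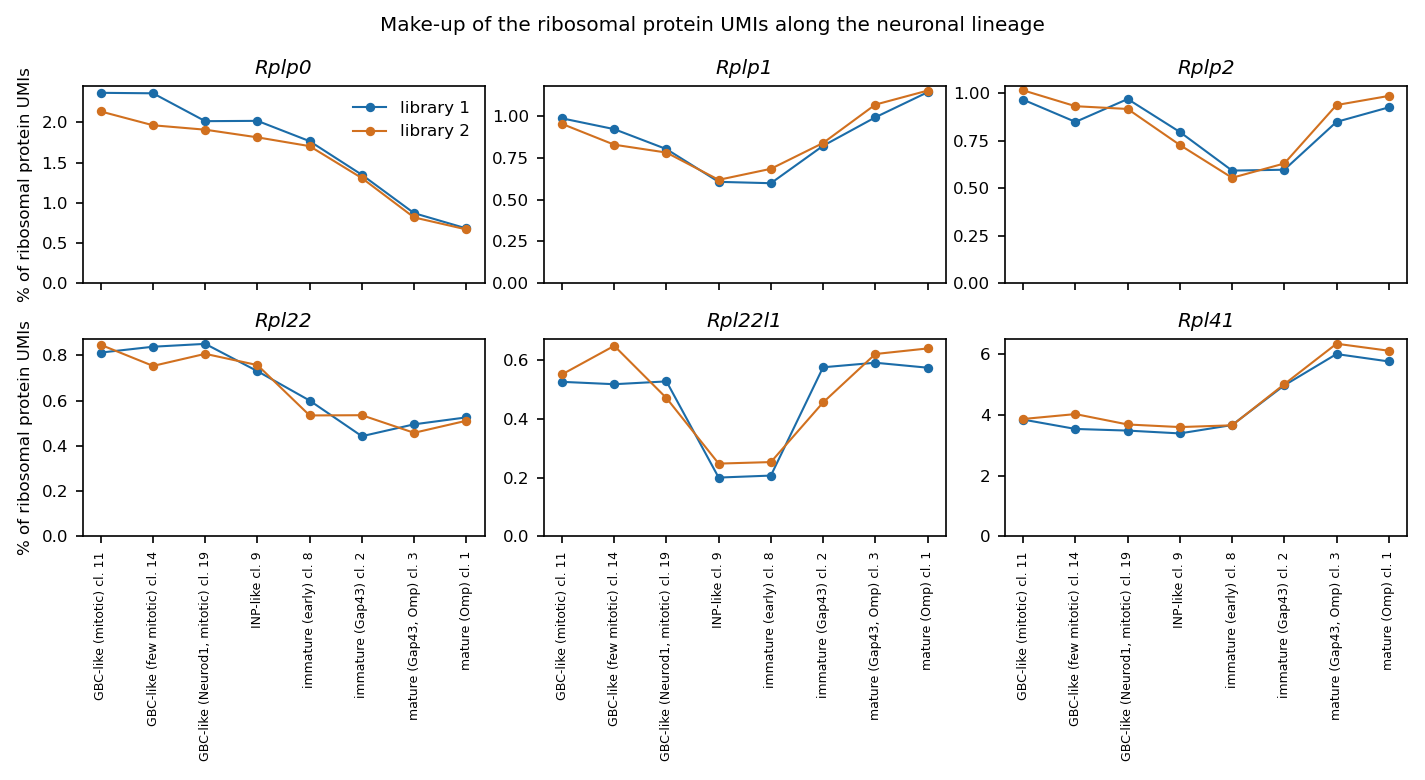
Share of ribosomal protein UMIs given by 6 members in 8 clusters of the neuronal lineage, ordered by markers, with 1 line per library; each vertical axis starts at 0 and has its own scale. Rplp0 declines from above 2% to below 0.7%, Rpl22l1 dips in clusters 9 and 8, and Rpl41 goes from below 4% to about 6%.

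Outside the lineage, Rps9, a protein of the small subunit, took 3.43% and 3.25% of the member UMIs of neutrophil-like cells (382 and 1499 UMIs) against 1.49% and 1.53% elsewhere. Rps27a, made as a fusion of ubiquitin with a small subunit protein, was also high there, with 3.59% and 3.48% against 1.97% and 1.94%. Rpl3, which lies at the peptidyl transferase centre, was low there, with 0.575% and 0.707% against 1.27% and 1.14%. The neutrophil-like cells had medians of 85.5 and 95 member UMIs per cell. In their larger cluster 7 the summed share of library 2, 4.25%, lay above the upper quartile of its cells, 3.21%, so that cells rich in member UMIs weigh heavily in these sums. Rps9 was under 2-fold without a cell filter, and with at least 2500 UMIs per cell too few neutrophil-like cells remained.

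In B lineage-like cells Rps27l, a paralog of Rps27 known as a target of p53, was the departing member, with 0.0919% and 0.112% of member UMIs (87 and 269 UMIs) against 0.329% and 0.316%. The same cells were low in Rps19bp1 (0.0211% and 0.0217% against 0.0483% and 0.0428%) and in Rps15 (0.157% and 0.171% against 0.286% and 0.308%), both short of 2-fold in at least 1 library. In mature OSN-like cells Rps27l was above the other classes, with 0.464% and 0.447% of member UMIs, and its level in CPM differed little from INP-like cells on: 386 and 363, then 304 and 322, then 316 and 290. Rpl41, the shortest ribosomal protein, was also above the other classes in mature OSN-like cells, with 5.47% and 5.96% of member UMIs against 3.43% and 3.55%.

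The remaining paralogs differed in where they were found. Rps27 and Rps27rt, an intronless copy on chromosome 9, have identical coding sequences (100% of 252 bases), so reads within it cannot be told apart. The last 100 bases of their transcripts were only 50.4% identical. Which part of the transcripts the reads came from was not tested. Both departed in the same direction in GBC-like cells: Rps27 with 1.43% and 1.48% against 2.48% and 2.44%, and Rps27rt with 0.133% and 0.161% against 0.227% and 0.289%. Both were high in HBC-like cells, with 3.46% and 3.44% of member UMIs for Rps27 and 0.329% and 0.397% for Rps27rt. Rpl7l1 was lowest against the other classes in HBC-like cells, with 0.0172% and 0.0204% against 0.0376% and 0.0346%. Rpl36a and Rpl36al, 87.7% identical over their coding sequences, diverged along the lineage: from cluster 11 to cluster 1 Rpl36a went from 0.579% and 0.542% to 0.345% and 0.379% of member UMIs, and Rpl36al from 0.289% and 0.303% to 0.478% and 0.485%.

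Of the paralogs known from muscle and testis, Rpl10l had 0 UMIs in all kept cells, which allows up to 0.140 CPM in library 1 and 0.0790 in library 2 (3 counts of the total). Rpl39l had 5 and 8 UMIs in fibroblast-like cells and 1 and 1 in macrophage or monocyte-like cells, and 0 in the other classes. Rpl3l had 7 and 25 UMIs in neutrophil-like cells, 5 and 5 in macrophage or monocyte-like cells and 1 and 6 in B lineage-like cells. It counts among the 5 departing members only because the neutrophil-like share, 0.0629% and 0.0542% of member UMIs, raised the mean of the other classes against which sustentacular-like cells, with 0 and 1 UMIs, were set. In the classes of the neuronal lineage the 3 gave a single UMI in all, of Rpl3l.

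Other genes of the translation machinery, from lists chosen with earlier results of these data known, went in part with the members. Among ribosomal protein genes whose symbols fall outside the pattern, Rpsa and Rack1 were at least 2-fold lower in mature OSN-like than in GBC-like cells in both libraries. Rpsa, a small subunit protein, went from 4489 and 4285 to 984 and 945 CPM, and Rack1, a scaffold on the small subunit, from 716 and 693 to 205 and 205. Fau, made as a fusion with a ubiquitin-like protein, went from 3884 and 3894 to 2011 and 1945 CPM (-0.98), which missed 2-fold.

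Genes of ribosome biogenesis were lower in mature OSN-like cells too. Of 37 measured, 22 were at least 2-fold lower in mature OSN-like than GBC-like cells and 0 higher (median -1.45), against 16.1% and 24.5% of all genes. From GBC-like to INP-like cells their median was already -0.68, and the members' -0.34; from immature to mature OSN-like cells it was -0.50, and the members' -0.82. Npm1, a nucleolar chaperone, went from 1612 and 1656 to 536 and 483 CPM in INP-like cells and 161 and 162 in mature OSN-like cells. Nop58, a core protein of the particles that methylate ribosomal RNA, went from 174 and 185 to 43.4 and 42.5 CPM in INP-like cells and 30.6 and 37.2 in mature OSN-like cells. Bysl, needed for small subunit assembly, stood at 8.74 and 13 CPM in GBC-like and 20.3 and 16.2 in mature OSN-like cells.

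The elongation list had 13 measured genes and held more than elongation factors, such as Eef2k, Eef1e1, Tpt1, Naca and Btf3. Of the 13, 6 were at least 2-fold lower and 3 higher in mature OSN-like cells, against 16.1% and 24.5% of all genes. The 3 higher lie near the share over all genes. Eef1a1, which brings transfer RNA to the ribosome, went from 5367 and 4176 CPM in GBC-like cells to 1499 and 1169 in mature OSN-like cells (-1.84). Eef1a2, its counterpart in neurons and muscle, went from 5.24 and 5.14 to 159 and 102 in immature and 306 and 337 CPM in mature OSN-like cells (5.70). Eef2 went from 609 and 547 to 356 and 368 CPM (-0.67), while the kinase that inhibits it, Eef2k, went from 11.1 and 10.0 to 57.3 and 66.6 CPM (2.44). Eif5a and Eif5a2, paralogs that resolve stalled ribosomes, differed as well: Eif5a was at 1173 and 1022 CPM in GBC-like and 608 and 547 in mature OSN-like cells, and Eif5a2 at 1.75 and 2.45, then 16.9 and 17.6 CPM.

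Among 31 genes of the initiation list, 11 were at least 2-fold lower and 1 higher (median -0.87), again against 16.1% and 24.5% of all genes. Eif4a1, the helicase that unwinds messenger RNA, went from 650 and 581 to 230 and 205 CPM (-1.50). Its paralog Eif4a2 was the higher one, at 112 and 124 CPM in GBC-like and 328 and 309 in mature OSN-like cells (1.43). Mitochondrial ribosomal protein genes, which serve the separate ribosome of that organelle, stayed apart from the members: of 77 measured, 6 were 2-fold lower and 2, Mrpl27 and Mrpl41, higher, with a median of -0.24. Both counts lie below the shares over all genes, 16.1% and 24.5%, whose median was 0.16.

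Of 19 measured regulators of ribosomal protein synthesis, 2 were at least 2-fold lower in mature OSN-like cells in both libraries, Myc (21.6 and 17.9 CPM in GBC-like, 1.80 and 3.62 in mature OSN-like cells) and Mycn (15.1 and 14.7, then 1.03 and 0.483 CPM), both transcription factors of growth. Rptor, a subunit of the mTORC1 kinase, was the 1 higher gene, at 11.1 and 9.79, then 24.4 and 22.2 CPM. Both counts are below the shares over all genes, 16.1% and 24.5%, so the list as a whole does not stand out, and the genes are given as values. Larp1, which binds the pyrimidine run of ribosomal protein messages, stood at 50.7 and 56.8 CPM in GBC-like and 79.6 and 93.4 in mature OSN-like cells (0.67). Eif4ebp1, an inhibitor of initiation, was at 62.9 and 58.3 CPM in GBC-like cells, 0 and 9.01 in INP-like cells, and 63.8 and 52.7 in immature OSN-like cells. Its low point fell on the class in which Rpl22l1 was low, a pairing made after the values were seen. In that class 14.1% of 8954 genes were at least 2-fold lower than in GBC-like cells in both libraries, and a link was not tested. The 0 UMIs of Eif4ebp1 in library 1 allow up to 11.8 CPM there.

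**Figure D5:**
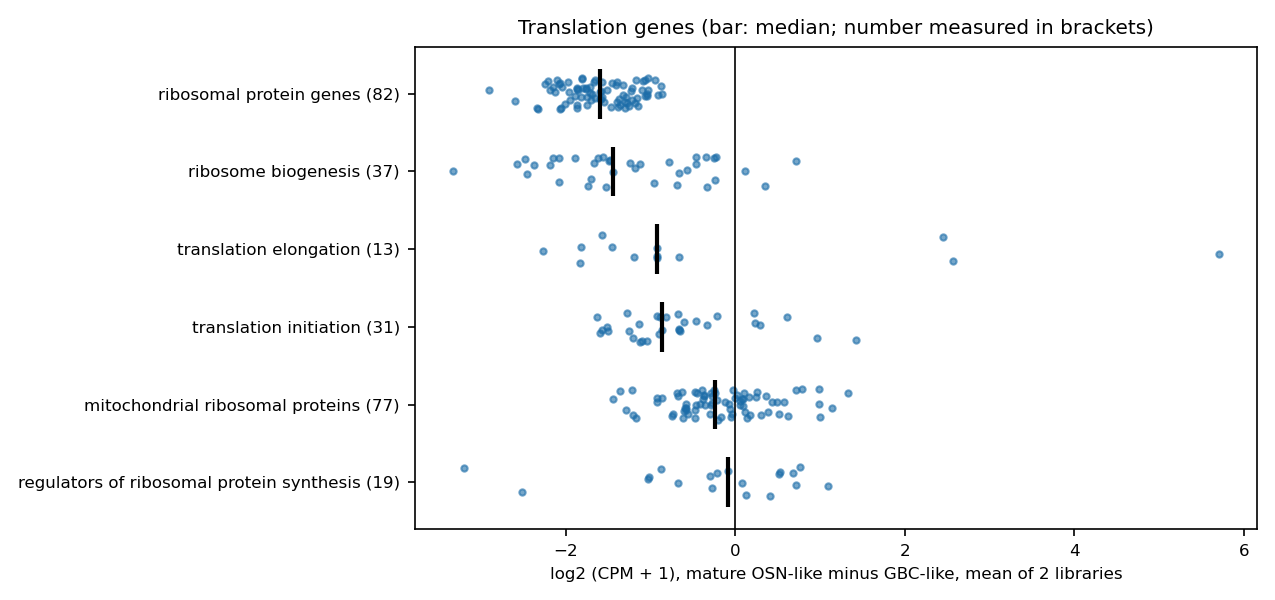
Difference of log2(CPM + 1) between mature OSN-like and GBC-like cells, mean of 2 libraries, for ribosomal protein genes and 5 lists of translation genes; each point is a gene, bars are medians and the number of measured genes is given in brackets. Ribosomal protein genes (median -1.60) and biogenesis genes (-1.45) lie to the left, mitochondrial ribosomal protein genes (-0.24) near 0, and Eef1a2 lies farthest to the right.

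Outside the members, the genes whose level was most like that of the summed members over the 24 class and library values, among 8126 candidates at 50 CPM or more in a class, were Rpsa (r = 0.987), Rack1 (0.980), Eef1b2 (0.957), Nsa2 (0.954), Gm11808 (0.950), Tpt1 (0.945), Gm2000 (0.944) and Npm1 (0.940). The points share 2 libraries and differ in depth, and the values are a description of likeness over these classes.

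Between the libraries the members differed little. The summed share was higher in library 2 in 6 of 12 classes and lower in the other 6, a split that moved to 9 of 11 with cells thinned to 2000 UMIs. In mature OSN-like cells 0 of 82 members differed 2-fold (background 2.51% lower and 2.31% higher in library 2), with a median of -0.08 on the log2 scale for library 2 over library 1. The members furthest apart there at 50 CPM or more were, on the higher side in library 2, Rps27rt (123 and 169 CPM, 0.46), Rpl23a (140 and 154 CPM, 0.13), Rpl35 (214 and 228 CPM, 0.09) and Rps15 (271 and 288 CPM, 0.09). On the lower side they were Rplp0 (-0.28), Rpl10 (158 and 133 CPM, -0.25), Rps24 (1179 and 1020 CPM, -0.21) and Rps4x (981 and 857 CPM, -0.19). For Rps27rt, picked for its large difference, the exact intervals were 112 to 134 and 157 to 182 CPM. Cluster 30 with its mixed markers gave 753406 of 3894170 mature OSN-like UMIs in library 1 and 404942 of 4142962 in library 2. Without it the libraries lay close in summed share, at 5.71% and 5.74% in cluster 1 and 6.86% and 6.66% in cluster 3. Without clusters 18 and 30 the summed share was higher in library 2 in 7 of 12 classes. For the differences of single members between the libraries, the part of cluster 30 was not tested.

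The libraries differed most evenly in 3 members. Rps27rt, Rpl35 and Rpl38 were higher in library 2 in 12 of 12 classes, with medians of 0.30, 0.29 and 0.13 on the log2 scale. Rpl21, Rplp0, Rpl29 and Rpl19 each made up a smaller share of member UMIs in library 2 in 12 of 12 classes, with medians of -0.19, -0.06, -0.05 and -0.04. These offsets had 1 direction in all 12 classes. How many of all genes have 1 direction in all 12 classes was not counted, so whether these numbers of members are unusual cannot be told. The side and the library cannot be told apart, since each side is 1 library.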

How the data were processed

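Both libraries were sequenced and turned by the authors into 1 aggregated matrix of UMI counts with Cell Ranger 3.0.2 and the mm10 build, per the submitters' processing notes; the deposited values are whole UMI counts per gene and cell barcode, with no later scaling. How reads that match several gene copies were counted is stated by no label or header, so members with near-identical copies are uncertain. The members and all gene lists were chosen with earlier results of these data known. Cells with at least 1000 UMIs, 500 genes and at most 10% mitochondrial UMIs were kept (8298 of 12491). Counts were scaled to 10000 per cell and logged, 2000 variable genes (members, odorant receptors, mitochondrial genes and Xist left out), 30 principal components, 15 neighbours and Leiden resolution 1.0 gave the clusters (scanpy 1.11.5, leidenalg 0.10.2, Python 3.11.15). A cluster took a name from at least 3 listed markers among its 50 leading genes. Scrublet called 7 cells (0.0844%), which is too few to have worked, and no doublets were removed. UMIs were summed per class and library and given as CPM or as a share, with exact 95% intervals (Poisson or binomial). Log2 differences were taken on CPM + 1. A gene was compared where the higher class had at least 10 CPM in each library, and called at 2-fold in both. The departure is the log2 ratio of a member's share of member UMIs in a class over its mean share in the other classes, with at least 30 UMIs observed or foreseen. Genes named in the text are the 6 with the largest and the 6 with the smallest difference between mature OSN-like and GBC-like cells, the 12 with the largest and the 6 with the smallest departure, the 4 furthest apart between libraries in each direction, paralogs, and the listed genes of other groups; those outside these sets were chosen after their values were seen. Values of some genes are not reported here. The calculations were tested on simulated data, and alternatives covered the cell filter, doublets, resolution, stage definition, thinning, minimum CPM, pseudocount and paralogs.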

Additional observations from a re-analysis of the deposited data

Results flagged for a closer look

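The share of UMIs from ribosomal protein genes went opposite ways between the libraries in different classes. In B lineage-like cells the log2 ratio of library 2 over library 1 was -0.0754, and in neutrophil-like cells 0.253; with 1 library per side the difference between these classes was not tested. The clusters within these classes were mixed differently in the libraries. B lineage-like cluster 10 held 33 of 139 cells in library 1 and 167 of 399 in library 2, with shares of 23.4% and 27.0%, and cluster 6 had shares of 30.8% and 28.2%. Neutrophil-like cluster 23 held 42 of 88 and 66 of 259 cells, with 5.89% and 6.58%, and cluster 7 had 3.02% and 4.25%.

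Pseudogene symbols that the rule left out carried 13708 UMIs in kept cells, or 0.180% as many as the members. Rpl10-ps3 had 3896 UMIs, Rpl9-ps6 3682, Rpl27-ps3 3316 and Rpl36a-ps1 1906. Rps12-ps3 had 520, Rpl7a-ps5 337, Rpl13a-ps1 28, Rpl36-ps4 15 and Rpl9-ps1 8. Whether these UMIs belong to the copies or to the members they resemble was not tested.

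The barcodes removed by the cell filter held ribosomal protein UMIs as well, at 7.94% of their UMIs in library 1 and 8.46% in library 2, below the 12.1% and 13.2% of the kept cells.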

How the results depend on the processing

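The log2 ratio of the ribosomal protein share between mature OSN-like and GBC-like cells (-1.62, counting interval -1.63 to -1.62) kept its sign in all 17 alternatives and stayed within that interval in 6. It was -1.64 without a cell filter, -1.79 (-1.785) with at most 5% mitochondrial UMIs, -1.77 (-1.768) without the 109 and 337 cells of highest doublet score, -1.65 (-1.649 and -1.651) at Leiden resolutions of 0.5 and 2, -1.81 (-1.805) with stages set by marker UMIs, -1.74 (-1.737) as a mean of the cells' own shares and -1.74 (-1.740) with cells thinned. Chosen after seeing the data, leaving out clusters 18 and 30 gave -1.74, cluster 3 gave -1.64 and cluster 14 gave -1.58 (-1.584). The number of members 2-fold lower (76) ranged from 71 to 80 over 19 alternatives. The number of departing members (5) was 2 with at least 2500 UMIs per cell (Rpl22l1 and Rplp0), where fewer classes had enough cells, and 2 with paralogs left out (Rplp0 and Rps9), where Rpl22l1, Rps27l and Rpl3l were not among the genes; 13 of 15 alternatives gave a number within 1.5 times of it, with other members among them: Rps9 and Rplp0 were not called without a cell filter, Rplp0 at resolution 0.5, Rpl22l1 with at most 5% mitochondrial UMIs and Rps27l with cells thinned, while Rpl3 and Rps27a were called with the highest doublet scores removed and Rps19bp1 with cells thinned. The classes with a higher share in library 2 (6 of 12) were 3 of 7 with at most 5% mitochondrial UMIs, where 5 classes had too few cells, but 9 of 11 with cells thinned, 9 with clusters weighing equally, 8 with the highest doublet scores removed and 8 at resolution 0.5. For the 12 members with the largest and smallest falls, 204 of 204 alternative values kept their sign. No paired analysis was possible because each side has 1 sample and the barcode endings carry no replicate number. Depth limits the members below 10 CPM and the departures in small classes.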
